A study of Homo sapiens with 12 samples.

Results

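The comparison described here asked how neutrophil-like cells given advanced glycation end products (AGEs) together with high glucose differed from cells given high glucose alone. Both groups received 30 mmol/L D-glucose for 24 h, and 1 of them also received AGEs at 0.05 ug/mL; 3 libraries of each, 6 of the 12 in the series, were compared. The other libraries were 3 from cells given 0.05 ug/mL AGEs and 3 from cells given 0.05 ug/mL bovine serum albumin (BSA), the labelled control, both without added glucose and also for 24 h. All cells came from HL-60, an established human promyelocytic leukaemia line, grown in RPMI medium with serum and, per the series text, induced to neutrophils. How they were induced is not stated in the labels. The members were the genes with at least 1 FPKM (a fragment count scaled by gene length and by library total) in at least 3 of the 12 libraries, which was 9751 of 10465 rows. No label states that the replicates are separate cultures; p-values then cover the spread among these libraries alone, which may be technical. No BSA is named for the cells given glucose, so AGEs and the mere addition of a protein cannot be told apart.

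AGEs form when sugars react without an enzyme with proteins and lipids, and they accumulate in diabetes. They bind several cell surface proteins, of which the receptor AGER (RAGE) is the best known and signals towards NF-kappaB. Neutrophils answer such stimuli through receptors for colony-stimulating factors, chemoattractants and antibodies, and they kill with granule proteins such as myeloperoxidase and with an oxidase that makes superoxide.

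The FPKM of the 6 libraries summed to between 220444 and 233854, and read depth is unknown because FPKM keeps no counts. Of 12 markers fixed for neutrophil-like cells 11 were measured and FCGR3B was not analysed here, and their summed FPKM was 1468 to 1492 with AGEs plus glucose against 1298 to 1427 with glucose. The eosinophil and basophil set, with 7 of 11 markers measured, summed to 2685 to 2769 against 2379 to 2616. Monocyte and macrophage markers, with 4 of 10 measured and CD14, CD163, MRC1, CX3CR1 and VCAN among those not analysed here, summed to 21.7 to 22.3 against 17.0 to 18.6. For lymphocytes 3 of 8 markers summed to 9.47 to 10.4 against 6.29 to 11.2, and for erythroid cells and megakaryocytes 1 of 10, ITGA2B, was measured at 5.54 to 6.48 against 4.80 to 6.08. No marker of any set passed the test. In such bulk RNA fewer cells of a type and less RNA per cell cannot be told apart. A library stood apart in each of 2 groups: glucose 3 had a limma library weight of 0.418, and AGEs 1, which enters the estimate of spread and the comparison without added glucose, had 0.181, against 0.797 to 1.82 in the other 10. The deviations of glucose 3 from the gene means correlated with log2 transcript length at 0.23 across genes, against -0.19 and -0.18 in glucose 1 and 2 and from -0.17 to 0.27, the latter in BSA 2, in the other groups. With GC content those of AGEs 1 correlated at 0.63, and those of the other 11 libraries at -0.18 to 0.06. In the glucose group the lowest summed markers for neutrophil-like cells, eosinophils, monocytes and lymphocytes were those of glucose 3, while its ITGA2B was the highest. S100A9 was at 326 FPKM in glucose 3, against 448 and 446 FPKM in glucose 1 and 2. CLC, with a mean of 2357 FPKM in the glucose group, made up most of the eosinophil and basophil sum. Glucose 3 belongs to the groups compared, so values without it are given beside the calls and lists that it moves.

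Between AGEs plus glucose and glucose alone 3 genes were called. The steroid hydroxylase gene CYP17A1 was lower with AGEs plus glucose. BMF, a proapoptotic gene of the BCL2 family, and LMO2, a transcriptional cofactor of early blood cells, were higher. The 2 higher calls were 0.0205% and the 1 lower call 0.0103% of the 9751 genes tested by limma on log2(FPKM + 1), with Benjamini-Hochberg adjusted p under 0.05. At an unadjusted p under 0.05 there were 331 higher genes (3.39%) and 259 lower ones (2.66%), 590 in all where 487.55 would be the share of 0.05. Differences were small across the transcriptome: 49.9% of genes lay above 0, the median absolute log2 difference was 0.08, 184 genes differed by more than 0.5 and 19 by more than 1. The number of calls depended on single libraries. Without glucose 3 there were 0 calls in limma, with 519 genes at an unadjusted p under 0.05, and without AGEs 1 there were 7 calls. Without AGEs 2, AGEs plus glucose 3 or any 1 of the 3 BSA libraries CYP17A1 was the 1 call.

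CYP17A1 encodes an enzyme of androgen and cortisol synthesis. Its level was 11.6, 11.98 and 12.3 FPKM in the glucose libraries and 6.82, 6.93 and 5.48 FPKM in those with AGEs plus glucose. All 3 libraries with AGEs lay far below all 3 without. The means were 11.9 ± 0.335 and 6.41 ± 0.807 FPKM (SD, n = 3), a log2 difference of -0.81 ± 0.09 (SE; 95% interval -1.004 to -0.62; limma adjusted p = 0.0150). With BSA the gene stood at 6.36 ± 0.553 FPKM and with AGEs alone at 6.02 ± 0.0936 FPKM, so of the 4 groups the glucose group was the one set apart. Against BSA the log2 difference was 0.82 ± 0.09 for glucose (limma adjusted p = 0.00695) and 0.01 ± 0.09 for AGEs plus glucose (adjusted p = 0.999); these 2 differences share the BSA libraries, and each shares 3 libraries with the main comparison. The call on CYP17A1 held in 11 of the 12 fits with 1 library left out, and without glucose 3 it was lost (log2 difference -0.79, adjusted p = 0.0997). It was also lost when the fit held the 6 libraries compared and no others (adjusted p = 0.0840). The strand setting of the counting is not given, so reads of antisense transcripts at a locus cannot be told apart from those of the gene.

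BMF encodes a BH3-only protein, which binds and blocks the survival members of the BCL2 family. It was measured at 8.77, 8.26 and 8.61 FPKM with glucose and at 13.1, 13.2 and 12.99 FPKM with AGEs plus glucose. The groups were well apart and each was tight. Means were 8.55 ± 0.258 and 13.1 ± 0.0979 FPKM (SD, n = 3), a log2 difference of 0.56 ± 0.07 (SE; limma adjusted p = 0.0267). BSA libraries had 13.2 ± 0.428 FPKM and AGEs libraries 13.8 ± 1.26 FPKM. Here too the combined group lay near BSA (log2 difference -0.02 ± 0.07, limma adjusted p = 0.997). Glucose lay below BSA (-0.58 ± 0.07, limma adjusted p = 0.0138). These differences share the BSA libraries, and each shares 3 libraries with the main comparison. Low glucose values are therefore partly built into the choice of BMF. The call on BMF held without AGEs 1 (adjusted p = 0.00457) or AGEs 3 (0.0271) and was lost without any 1 of the other 10 libraries, with adjusted p from 0.0598 without AGEs 2 to 0.207 without AGEs plus glucose 3. Its log2 difference over the fits with 1 library left out was 0.54 to 0.58. Leaving out a BSA or AGEs library cannot change this difference. The range therefore rests on the fits without a library of the groups compared.

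LMO2 encodes a bridging protein of transcription factor complexes in blood stem and precursor cells. Its values were 10.3, 11.3 and 10.4 FPKM with glucose and 15.8, 15.2 and 15.3 FPKM with AGEs plus glucose. The lowest library with AGEs exceeded the highest without. The means were 10.6 ± 0.553 and 15.4 ± 0.342 FPKM (SD, n = 3; log2 difference 0.50 ± 0.07 SE, limma adjusted p = 0.0498). Unlike for the first 2 genes, the mean of the combined group was also above BSA, at 12.6 ± 0.689 FPKM, and above AGEs alone, at 13.1 ± 0.781 FPKM, but its difference from BSA did not pass the test (log2 difference 0.27 ± 0.07, limma adjusted p = 0.646). Without AGEs 1 the call held (adjusted p = 0.0151), and without any 1 of the other 11 libraries it was lost, with adjusted p from 0.0662 without AGEs 2 to 0.300 without AGEs plus glucose 3. Its log2 difference over the fits with 1 library left out was 0.47 to 0.53. As for BMF, only leaving out a library of the groups compared could change it.

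**Figure D1:**
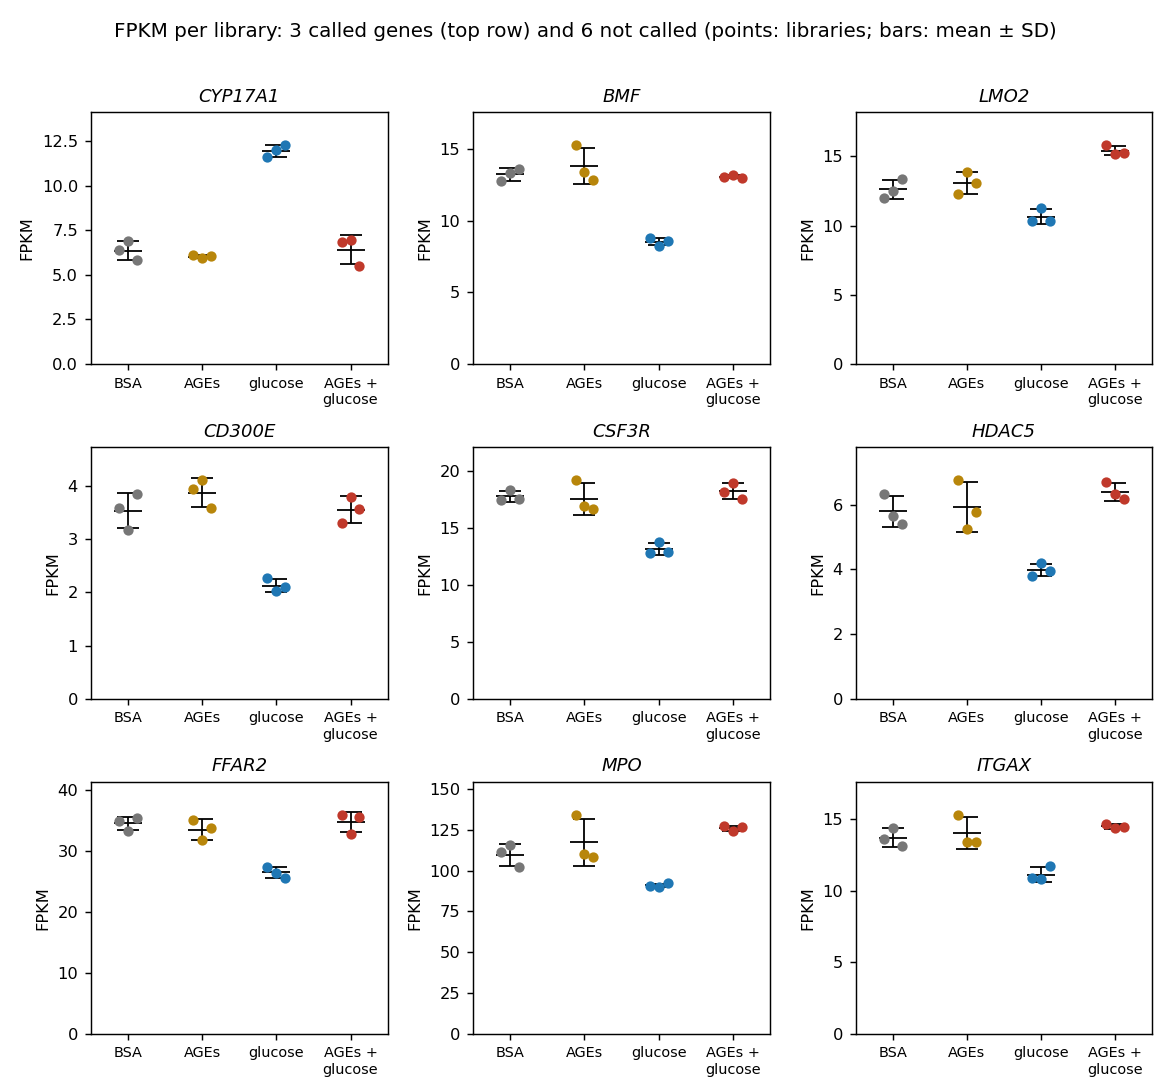
Level in FPKM (vertical axes, from 0) of 9 genes in each library of the 4 groups, with the mean and SD as bars. In the top row are the 3 called genes, CYP17A1, BMF and LMO2, and below them 6 that were not called. In every panel the 3 glucose libraries and the 3 with AGEs plus glucose do not overlap. The genes were picked for a small p, and of all genes tested 7.67% with higher and 7.86% with lower values do not overlap.

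In the higher direction none of the 8 genes that came next in order of p passed the threshold. CD300E, an activating receptor of myeloid cells, was at 2.26, 2.02 and 2.10 FPKM with glucose. With AGEs plus glucose it was at 3.30, 3.80 and 3.57 FPKM (log2 difference 0.54 ± 0.08, limma adjusted p = 0.0795). CD300E was also called for glucose against BSA on the same glucose libraries (limma adjusted p = 0.0400). Its low glucose level is therefore partly built into its choice. CSF3R, the receptor of granulocyte colony-stimulating factor, was at 12.8, 13.8 and 12.9 against 18.1, 19.0 and 17.6 FPKM (0.44 ± 0.07, limma adjusted p = 0.0831). In both the groups did not overlap, and across all genes tested the groups did not overlap in 7.67% with higher and 7.86% with lower values. FFAR2, a receptor for short-chain fatty acids, had 26.5 ± 0.870 against 34.8 ± 1.69 FPKM (SD, n = 3; limma adjusted p = 0.107). ITGAX, the integrin subunit CD11c, had 11.1 ± 0.498 against 14.5 ± 0.167 FPKM (limma adjusted p = 0.278). HDAC5, a class II histone deacetylase, had 3.98 ± 0.192 against 6.39 ± 0.282 FPKM (limma adjusted p = 0.0831). The other members of the leading 10 were MPO, which is described with the granule proteins, FAM134A (7.33 ± 1.05 against 11.7 ± 0.300 FPKM, limma adjusted p = 0.169) and the Golgi stacking protein gene GORASP2 (6.49 ± 1.31 against 11.1 ± 1.44 FPKM, limma adjusted p = 0.313).

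In the lower direction none of the 9 genes that followed CYP17A1 in order of p passed the threshold. SEP15, a selenoprotein of the endoplasmic reticulum, had the most negative difference of those named: it was at 53.5, 49.2 and 47.1 FPKM with glucose and 25.99, 15.8 and 15.99 FPKM with AGEs plus glucose (log2 difference -1.37 ± 0.25, limma adjusted p = 0.212). Its BSA libraries ran from 28.9 to 49.6 and its AGEs libraries from 30.6 to 52.3 FPKM, so libraries of those groups varied widely. IDH3A, a subunit of the NAD-dependent isocitrate dehydrogenase of the citric acid cycle, was at 7.98 ± 1.14 against 5.12 ± 0.922 FPKM (SD, n = 3; limma adjusted p = 0.314). STOML2, a protein of the inner mitochondrial membrane, was at 39.3 ± 0.700 against 30.0 ± 1.0 FPKM (limma adjusted p = 0.325). STOML2 was also called for glucose against BSA on the same glucose libraries (limma adjusted p = 0.0253). Its high glucose level is therefore partly built into its choice. CHMP1A, of the ESCRT machinery, was at 9.25 ± 0.632 against 6.01 ± 0.212 FPKM (limma adjusted p = 0.314), and the ubiquitin ligase gene UBE3A at 6.89 ± 0.787 against 5.04 ± 0.333 FPKM (0.325). RRN3, a factor for RNA polymerase I, was at 13.7 ± 0.354 against 10.7 ± 0.782 FPKM (limma adjusted p = 0.327). The other 3 of the leading 10, CCNE2, MCM4 and HSPA8, belong to gene lists described with their groups.

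Among the receptors for AGEs the values of AGER itself were low. It was at 1.21, 1.27 and 0.962 FPKM with glucose and 1.82, 1.77 and 1.76 FPKM with AGEs plus glucose. The groups did not overlap, as in 7.67% of all genes tested with higher values. The difference did not pass (log2 difference 0.38 ± 0.09, limma adjusted p = 0.326). BSA libraries had 1.65 ± 0.0925 and AGEs libraries 1.97 ± 0.261 FPKM (SD, n = 3). Of the 8 measured genes for AGE and scavenger receptors, 7 lay above 0 and 0 were called, with a median log2 difference of 0.06 against 0.00 for all genes tested. CD68, a lysosomal scavenger receptor of the same list, was at 2.15 ± 0.737 against 3.16 ± 0.417 FPKM with overlapping groups. Downstream, 15 of 24 genes for RAGE ligands and signalling partners lay above 0 (median 0.03, and -0.01 without glucose 3), 13 of 21 NF-kappaB subunits and feedback targets (median 0.02) and 18 of 24 cytokines and chemokines (median 0.09, and -0.03 without glucose 3). None of these 3 lists held a called gene, and at an unadjusted p under 0.05 the cytokine list had 0 genes in either direction.

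Surface receptors of neutrophils were split: 15 of 27 lay above 0, with a median log2 difference of 0.04, and 7 had an unadjusted p under 0.05 in the higher direction and 1 in the lower, against 3.39% and 2.66% of all genes. CSF3R headed this list. PTAFR, the receptor of platelet-activating factor, was at 10.6, 9.93 and 10.1 FPKM with glucose and 12.4, 12.2 and 12.9 FPKM with AGEs plus glucose (log2 difference 0.27 ± 0.06, limma adjusted p = 0.326). Both groups were tight and did not overlap, as in 7.67% of all genes tested with higher values. FCGR1A, the high-affinity receptor for IgG, which has close copies in the genome among which reads can be split, was at 7.89 ± 0.532 against 9.20 ± 0.226 FPKM (limma adjusted p = 0.768). CSF2RA, a subunit of the receptor for granulocyte-macrophage colony-stimulating factor, had a log2 difference of 0.16 ± 0.06 (limma adjusted p = 0.805). Without glucose 3, 3 receptors had an unadjusted p under 0.05 in the higher direction, and 16 of 27 lay above 0.

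Myeloperoxidase led the azurophil granule list. MPO was at 90.5, 90.1 and 92.3 FPKM with glucose and 127, 124 and 127 FPKM with AGEs plus glucose. Replicates agreed within a few FPKM in both groups, and the log2 difference of 0.47 ± 0.08 had a limma adjusted p = 0.120. Levels were 110 ± 6.69 FPKM with BSA and 117 ± 14.5 FPKM with AGEs (SD, n = 3). Next came BPI, a protein that kills Gram-negative bacteria, with a log2 difference of 0.26 ± 0.09, and the defensin gene DEFA3 with 0.49 ± 0.20, which is nearly identical to its neighbour DEFA1 and so uncertain (limma adjusted p = 0.753 and 0.805). Of the 16 measured genes 11 lay above 0 and 0 were called; the median was 0.10, and 0.04 with 8 of 16 above 0 without glucose 3. For the NADPH oxidase, which makes superoxide, 9 of 10 genes lay above 0 with a median of 0.07, and 10 of 10 without glucose 3 with a median of 0.08. NCF1, its p47phox subunit, whose reads can be shared with pseudogenes, was at 164 ± 10.1 against 182 ± 2.47 FPKM, and the proton channel gene HVCN1 had a log2 difference of 0.28 ± 0.12 (limma adjusted p = 0.792 and 0.810).

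Lists for monocytes and for eosinophils had the most positive medians of the lists with at least 5 measured genes, 0.21 and 0.17. Of 8 monocyte and macrophage genes 7 lay above 0 and 0 were called, and the median without glucose 3 was again 0.21. After CD300E, CSF1R, the main growth factor receptor of macrophages, was at 6.23, 6.62 and 7.12 FPKM with glucose and 8.39, 8.17 and 8.18 FPKM with AGEs plus glucose (log2 difference 0.27 ± 0.10, limma adjusted p = 0.765). These values did not overlap, as in 7.67% of all genes tested with higher values. Those of BSA were 9.70, 10.8 and 8.77 FPKM. Of 11 eosinophil and basophil genes 9 lay above 0, and 8 with a median of 0.12 without glucose 3. Eosinophil peroxidase, EPX, was at 13.8 ± 0.224 against 16.9 ± 0.678 FPKM (limma adjusted p = 0.805). CLC, the Charcot-Leyden crystal protein, was at 2357 ± 119 against 2535 ± 30.5 FPKM (limma adjusted p = 0.815). The part of cell composition in any of these differences was not tested.

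Genes of growth and protein folding lay on the other side of 0 in this comparison. For AGEs against BSA the medians were 0.05 for MYC and ribosome biogenesis, 0.02 for heat shock and 0.04 for proliferation genes. In each of these lists the glucose libraries had the highest median deviations from the gene means. In the list of MYC and ribosome biogenesis genes, 32 of 34 were below 0 in AGEs plus glucose against glucose, with a median log2 difference of -0.12, and 31 of 34 without glucose 3, with a median of -0.13. None was called, and 8 had an unadjusted p under 0.05, all lower, where 2.66% of all genes did so in that direction; without glucose 3 there were 2. ODC1, the rate-limiting enzyme of polyamine synthesis, was at 24.2, 24.4 and 25.9 FPKM with glucose and 20.8, 19.9 and 20.8 FPKM with AGEs plus glucose (log2 difference -0.26 ± 0.08, limma adjusted p = 0.674). NOP56, a core protein of box C/D small nucleolar particles, was at 23.1 ± 0.271 against 20.9 ± 0.266 FPKM, and NOP2, an rRNA methyltransferase, had a log2 difference of -0.18 ± 0.07 (limma adjusted p = 0.768 for both). In all 3 genes the groups did not overlap, as in 7.86% of all genes tested with lower values. They were picked for a small p within their list.

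Of the heat shock proteins and co-chaperones 25 of 29 lay below 0, with a median of -0.10, and 24 of 29 without glucose 3, with a median of -0.11. HSPA8, the constitutive HSP70 chaperone, which has many processed pseudogenes, was at 158, 155 and 158 FPKM with glucose and 132, 134 and 139 FPKM with AGEs plus glucose (log2 difference -0.22 ± 0.05, limma adjusted p = 0.317). BSA libraries had 122 ± 4.57 FPKM, so the combined group lay between BSA and glucose. HSPA8 was also called for glucose against BSA on the same glucose libraries (limma adjusted p = 0.0253), so this position is partly built into its choice. HSPH1, an HSP110 nucleotide exchange factor, was at 14.8, 14.3 and 17.6 against 11.9, 12.6 and 12.5 FPKM (limma adjusted p = 0.549). The chaperonin subunit gene CCT2 had a log2 difference of -0.21 ± 0.06 and HSP90AB1, a cytosolic HSP90, of -0.14 ± 0.04 (limma adjusted p = 0.648 and 0.674). None was called, and the 5 genes of this list with an unadjusted p under 0.05 were all lower, against 2.66% of all genes in that direction; without glucose 3 there were again 5.

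Proliferation genes showed the same side: 34 of 42 lay below 0, with a median of -0.09, and 32 without glucose 3, with a median of -0.10. CCNE2, a cyclin of the entry into S phase, was at 3.49, 3.71 and 3.18 FPKM with glucose and 2.38, 2.31 and 2.57 FPKM with AGEs plus glucose (log2 difference -0.38 ± 0.08, limma adjusted p = 0.313). MCM4 and MCM6 are subunits of the replicative helicase. MCM4 was at 22.3 ± 0.137 against 18.3 ± 0.400 FPKM (limma adjusted p = 0.314) and MCM6 at 32.5 ± 2.34 against 26.9 ± 0.818 FPKM (limma adjusted p = 0.507). TYMS, the thymidylate synthase, had a log2 difference of -0.26 ± 0.07 (limma adjusted p = 0.621). None of the 42 was called, and 8 had an unadjusted p under 0.05, all lower, against 2.66% of all genes in that direction, and 6 without glucose 3.

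**Figure D2:**
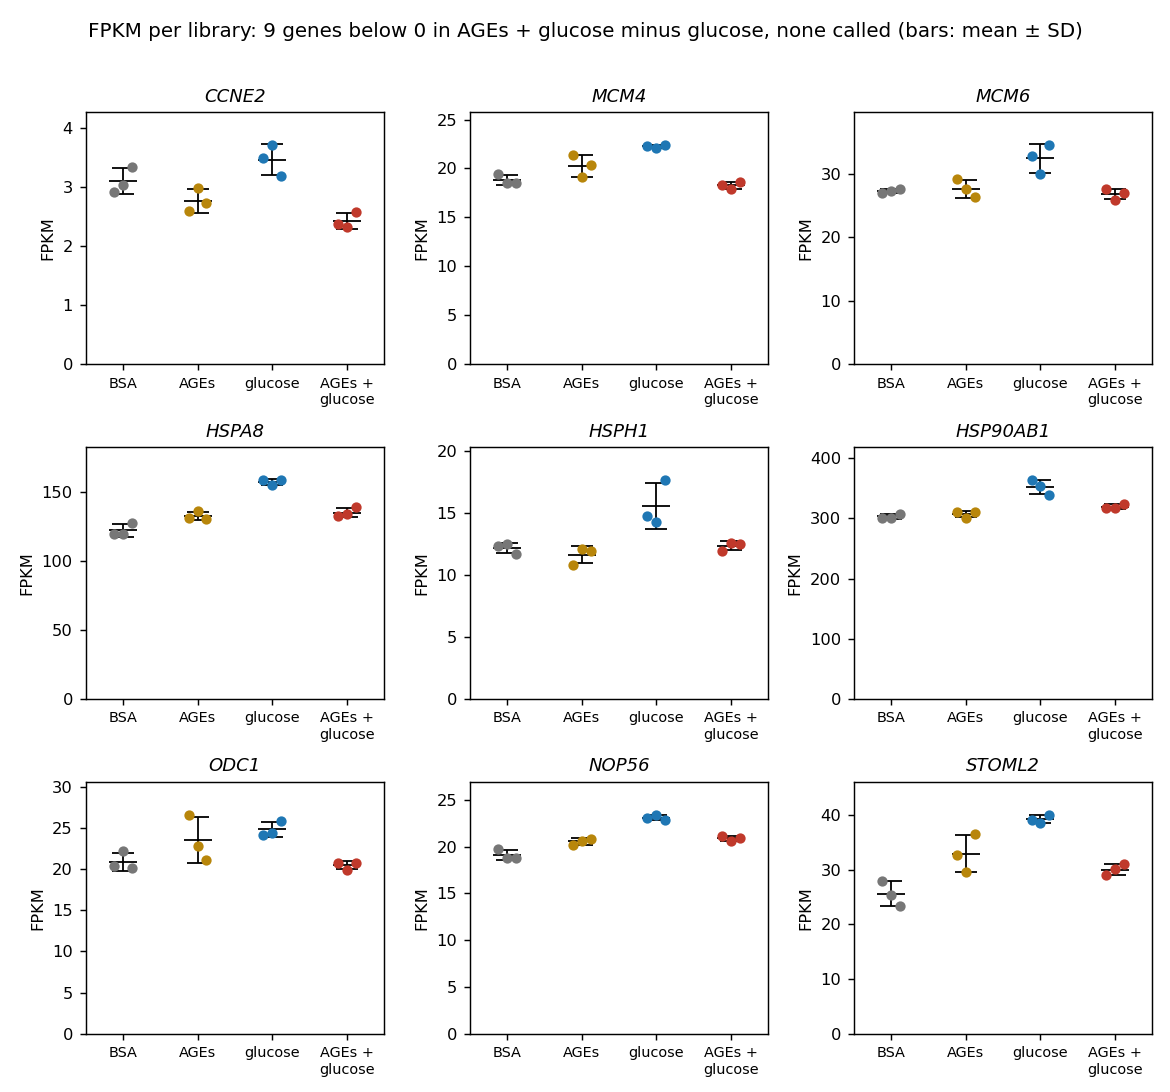
Level in FPKM (vertical axes, from 0) per library for 9 genes of replication, chaperones, growth and mitochondria, with mean and SD as bars. In every panel the 3 libraries with AGEs plus glucose lie below the 3 with glucose, and none of the 9 was called. The genes were picked for a small p in this direction, and 7.86% of all genes tested lie so.

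The starts of genes of these 3 lists were read for short motifs known for MYC (CACGTG), for E2F factors (TTTCCCGC, TTTCGCGC, TTTGCCGC and TTTGGCGC) and for heat shock factors (TTCNNGAA), on both strands, in the RefSeq promoters of build GRCh38.p14, from 250 bases before to 50 bases after a start. CACGTG stood in 15 of 28 promoters matched for the MYC and ribosome biogenesis list (53.6%) and in 13.4% of the 7624 tested genes with a promoter. An E2F motif stood in 14 of 33 for proliferation genes (42.4%, against 7.21%). TTCNNGAA stood in 11 of 27 for heat shock genes (40.7%, against 8.38%). These lists name genes known for such regulation, so the shares describe the lists and are no evidence on AGEs. A gene with a match is shown for each list, the first by p after promoters of an excluded chromosome were passed over. Matches are in capitals, 5′ to 3′ on the gene's strand, which is minus for all 3. ODC1 lies at chr2:10447963-10448262 with 2 matches, MCM6 at chr2:135876394-135876693 with 4, which overlap in pairs because 2 of the E2F motifs fall on opposite strands, and HSPA8 at chr11:123062087-123062386 with 2.
ODC1: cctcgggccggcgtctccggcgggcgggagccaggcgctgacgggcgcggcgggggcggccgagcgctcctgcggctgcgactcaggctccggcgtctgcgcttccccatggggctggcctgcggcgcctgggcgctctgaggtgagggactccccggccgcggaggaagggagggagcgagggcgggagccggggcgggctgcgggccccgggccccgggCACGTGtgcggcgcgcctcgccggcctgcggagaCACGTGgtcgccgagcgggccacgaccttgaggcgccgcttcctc
MCM6: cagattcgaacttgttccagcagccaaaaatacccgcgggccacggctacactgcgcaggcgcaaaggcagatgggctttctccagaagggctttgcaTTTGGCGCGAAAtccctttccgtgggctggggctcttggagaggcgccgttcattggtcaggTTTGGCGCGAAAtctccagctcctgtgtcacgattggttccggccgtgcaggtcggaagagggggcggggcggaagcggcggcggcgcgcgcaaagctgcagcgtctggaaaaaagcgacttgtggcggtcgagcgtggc
HSPA8: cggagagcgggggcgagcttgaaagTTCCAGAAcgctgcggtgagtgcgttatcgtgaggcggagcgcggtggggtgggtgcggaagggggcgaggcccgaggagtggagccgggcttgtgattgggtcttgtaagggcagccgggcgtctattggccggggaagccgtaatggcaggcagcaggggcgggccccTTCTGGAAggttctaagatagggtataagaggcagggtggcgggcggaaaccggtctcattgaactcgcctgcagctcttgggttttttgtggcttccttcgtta

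**Figure D3:**
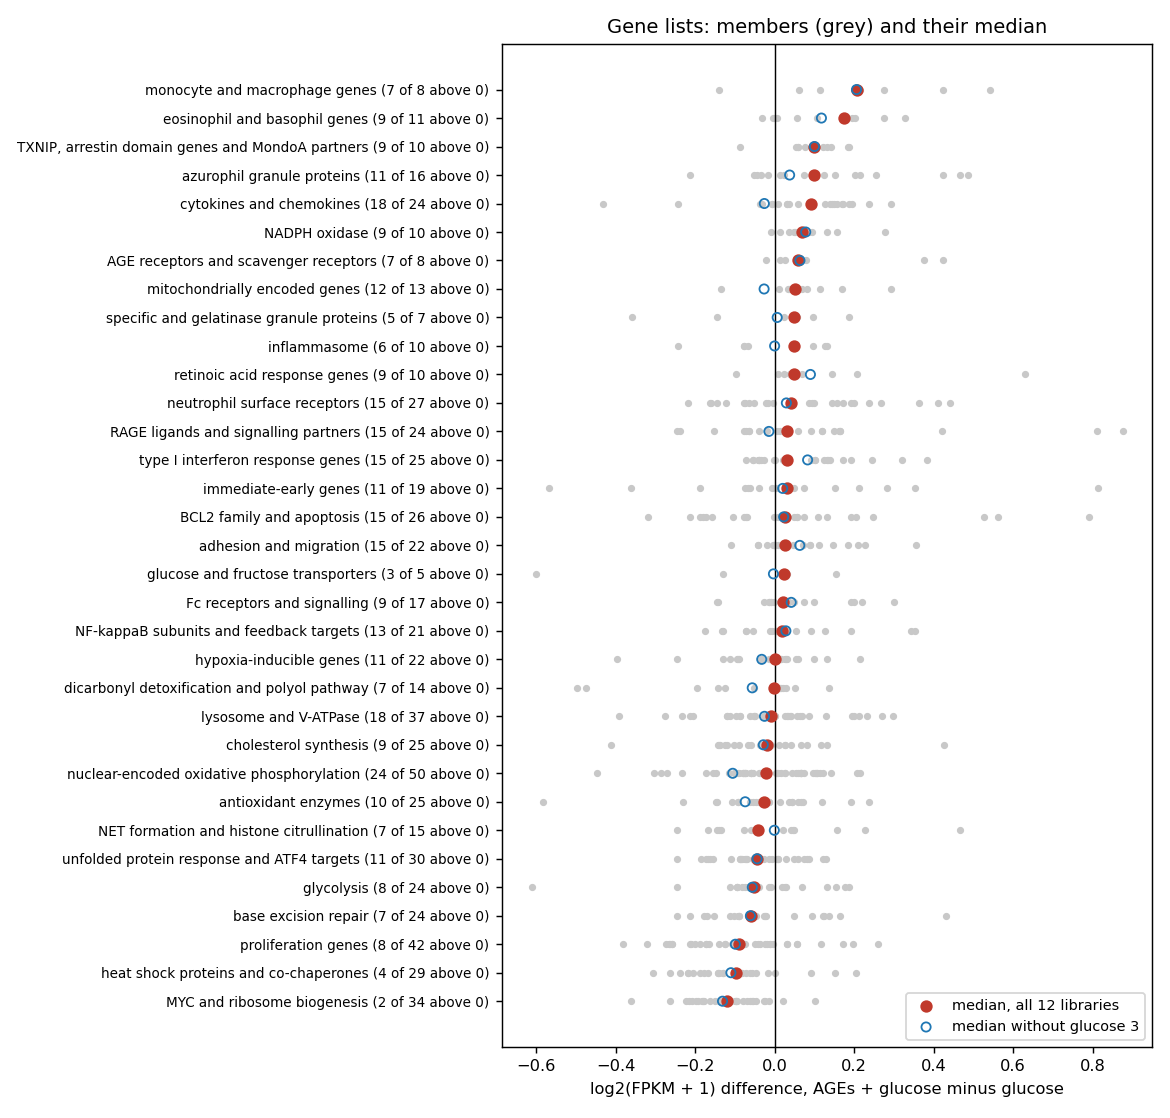
Log2 differences of list members (grey points) for AGEs plus glucose minus glucose, with the list median over all 12 libraries (filled) and without glucose 3 (open), for lists with at least 5 measured genes; the vertical line is the median of all genes tested. MYC and ribosome biogenesis (-0.12), heat shock (-0.10) and proliferation (-0.09) genes have the most negative medians, and monocyte (0.21) and eosinophil (0.17) genes the most positive.

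Apoptosis genes were mixed apart from BMF, with 15 of 26 above 0 and a median of 0.03. TNFRSF10B, a death receptor for TRAIL, was at 8.72, 8.90 and 8.82 FPKM with glucose and 10.1, 10.9 and 10.9 FPKM with AGEs plus glucose (log2 difference 0.25 ± 0.06, limma adjusted p = 0.507). BCL2, the founding survival gene, was at 1.51 ± 0.0553 against 1.20 ± 0.0505 FPKM (limma adjusted p = 0.815). CFLAR, an inhibitor of caspase-8 activation, varied widely between libraries of the combined group, from 2.29 to 7.78 FPKM, and its groups overlapped.

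No gene of the lists for glucose sensing and use passed the test. TXNIP, a glucose-responsive arrestin-fold protein that limits glucose uptake, was at 192, 190 and 183 FPKM with glucose and 209, 203 and 211 FPKM with AGEs plus glucose (log2 difference 0.14 ± 0.05, limma adjusted p = 0.753). The groups did not overlap, as in 7.67% of all genes tested with higher values. BSA libraries had 224 ± 8.78 FPKM. Its relative ARRDC4 was at 5.35 ± 0.613 against 4.96 ± 0.189 FPKM with overlapping groups. In the list of TXNIP, arrestin domain genes and MondoA partners 9 of 10 lay above 0 with a median of 0.10, and 7 of 10 without glucose 3. Glycolysis had 16 of 24 below 0 (median -0.05), and nuclear-encoded oxidative phosphorylation 26 of 50 (median -0.02, and -0.11 without glucose 3). Mitochondrially encoded genes had 12 of 13 above 0 (median 0.05), but the median was -0.03 without glucose 3. Retinoic acid response genes are of interest because retinoic acid can drive HL-60 cells to granulocytes. Of these, 9 of 10 lay above 0 (median 0.05, and 0.09 without glucose 3). CD38, an ectoenzyme of this list, was at 38.9 ± 0.50 against 45.1 ± 0.415 FPKM (limma adjusted p = 0.752).

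Whether AGEs made a different change with glucose than without it was tested as an interaction, the difference made in high glucose minus that of AGEs against BSA. The arms have unlike comparators: BSA without added glucose, and a group with no named BSA in high glucose. A changed response to AGEs and this change of comparator cannot be told apart. TDG, which removes mispaired thymine and oxidised methylcytosine from DNA, was the 1 gene called (0.0103% of 9751), and 477 had an unadjusted p under 0.05. It was at 6.86, 8.13 and 8.66 FPKM with BSA, 15.3, 16.6 and 16.1 with AGEs, 18.2, 17.5 and 17.9 with glucose and 15.5, 17.3 and 16.6 with both. The BSA libraries lay below all others. The log2 difference made by AGEs was 0.94 ± 0.08 without glucose and -0.11 ± 0.08 with it, and the interaction was -1.05 ± 0.11 (limma adjusted p = 0.0148). It was called in 8 of 12 fits with 1 library left out, and lost without BSA 2 (adjusted p = 0.0589), AGEs 3 (0.0793), glucose 2 (0.0688) or AGEs plus glucose 3 (0.0796). TDG has processed pseudogenes to which reads could be split.

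The next genes of the interaction did not pass. ATP2B4, a calcium pump of the plasma membrane, was at 46.9, 43.3 and 45.1 FPKM with AGEs, while BSA libraries ran from 20.9 to 24.9, glucose libraries from 18.7 to 22.2 and the combined group from 20.9 to 22.3 FPKM. AGEs alone was the group set apart, and the interaction was -0.87 ± 0.12 (limma adjusted p = 0.0555). STOML2 had an interaction of -0.73 ± 0.12 (limma adjusted p = 0.116). In the other direction GORASP2 had 1.35 ± 0.20 (limma adjusted p = 0.0940), FAM134A 0.98 ± 0.16 (0.116) and NDRG1, a hypoxia-inducible gene, 0.44 ± 0.08 (0.223). For the 3 genes called in high glucose the interaction did not pass: it was -0.75 ± 0.12 for CYP17A1 (limma adjusted p = 0.119), 0.50 ± 0.10 for BMF (0.306) and 0.45 ± 0.10 for LMO2 (0.339). A difference in their response between the 2 glucose conditions was therefore not shown, although AGEs against BSA gave -0.07 ± 0.09, 0.06 ± 0.07 and 0.04 ± 0.07.

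**Figure D4:**
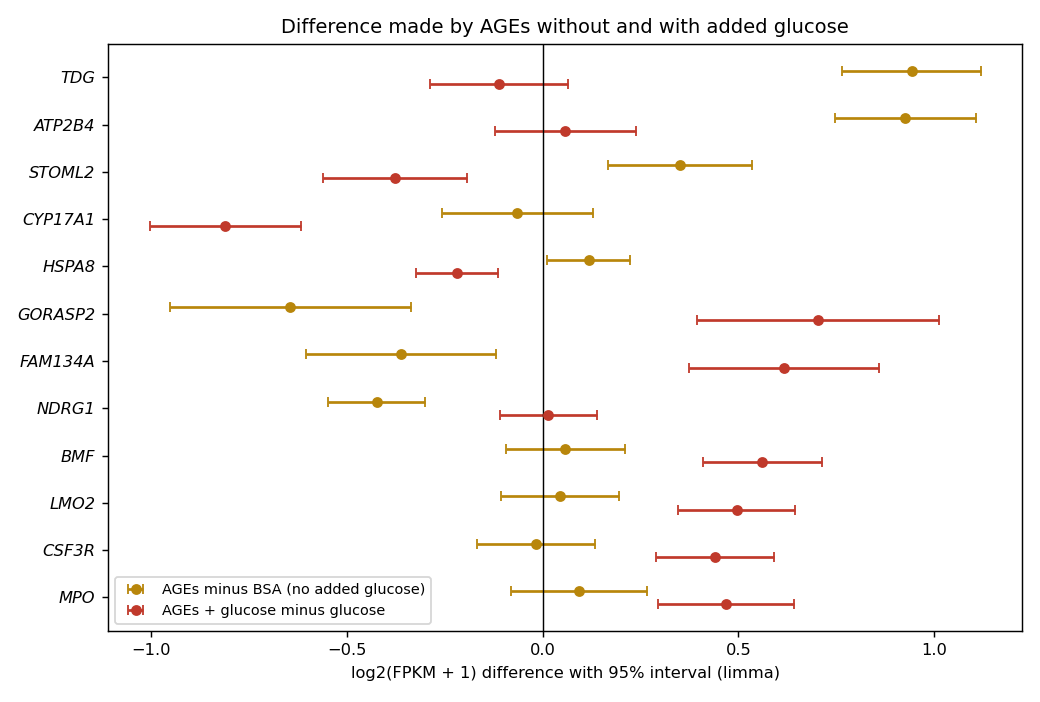
Log2(FPKM + 1) difference (horizontal axis) with its 95% limma interval for 12 genes, for AGEs minus BSA and for AGEs plus glucose minus glucose. TDG and ATP2B4 lie at 0.94 and 0.93 without added glucose and at -0.11 and 0.06 with it; CYP17A1, BMF and LMO2 lie near 0 without and at -0.81, 0.56 and 0.50 with it.

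Genes that earlier work on these data called against BSA were read in high glucose as well, and 6 of them remain to be described. FCGR2B, CD180, THBS1 and ACAT2 were called for glucose against BSA (limma adjusted p = 0.0253, 0.0253, 0.0253 and 0.0464), on the same glucose libraries. A combined group lying back towards BSA is therefore partly built into their choice. The inhibitory Fc receptor gene FCGR2B was at 9.30 ± 0.298 FPKM with glucose and 11.7 ± 0.369 FPKM with AGEs plus glucose (SD, n = 3; log2 difference 0.30 ± 0.07, limma adjusted p = 0.325). CD180, a Toll-like receptor homologue, was at 2.66 ± 0.264 against 3.496 ± 0.118 FPKM (limma adjusted p = 0.441). In both genes the groups did not overlap and the combined group lay between glucose and BSA, at 13.3 ± 0.446 and 4.22 ± 0.209 FPKM. Across all genes tested the groups did not overlap in 7.67% with higher values. THBS1, thrombospondin 1, was at 7.96 ± 0.592 against 8.90 ± 0.124 FPKM, with 12.2 ± 0.592 FPKM in BSA (limma adjusted p = 0.835). ACAT2, a cytosolic acetyl-CoA acetyltransferase, was at 40.7 ± 1.40 against 37.9 ± 0.841 FPKM (limma adjusted p = 0.829). NDRG1 was at 24.6 ± 0.889 against 24.9 ± 0.889 FPKM and ATP2B4 at 20.8 ± 1.80 against 21.6 ± 0.707 FPKM, with overlapping groups in both. The 95% intervals of their log2 differences were -0.11 to 0.14 and -0.12 to 0.24.

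**Figure D5:**
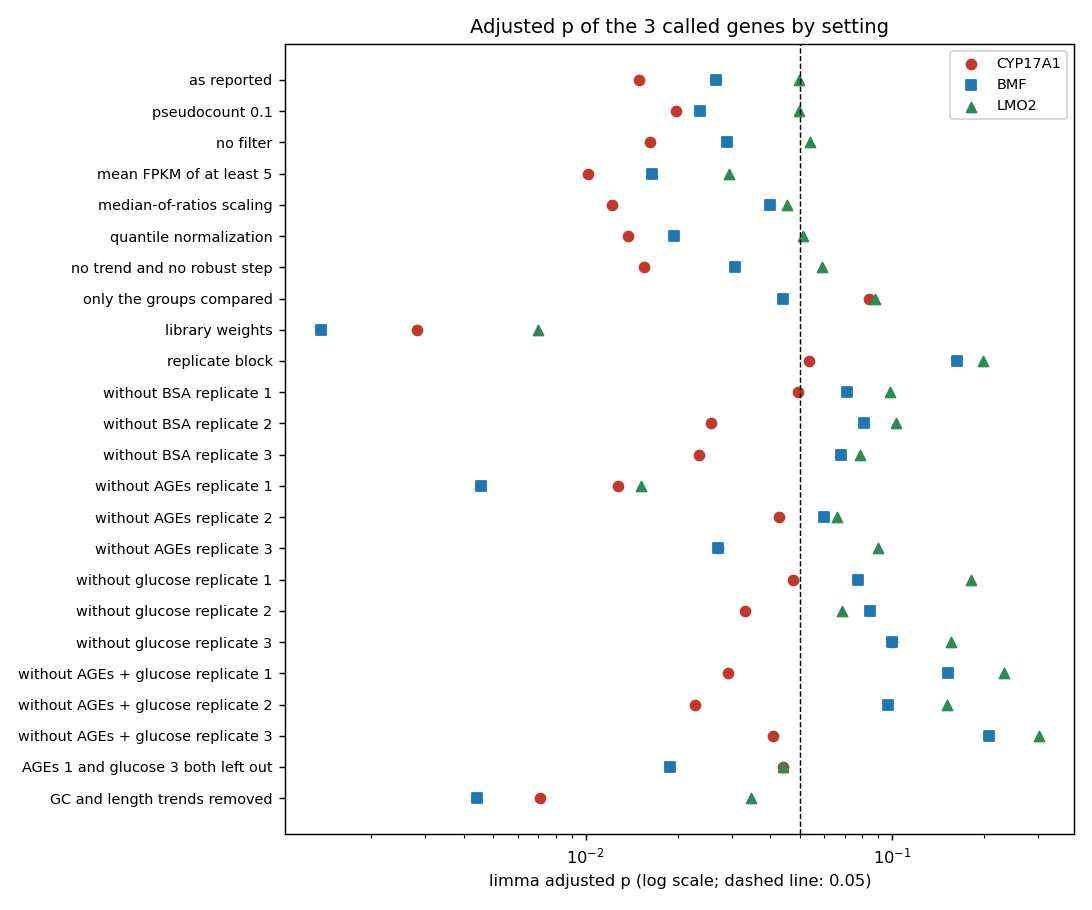
Adjusted p (log axis, dashed line at 0.05) of CYP17A1, BMF and LMO2 as reported and under 23 other settings of the processing. CYP17A1 is left of the line in 20 of the 23, BMF in 12 and LMO2 in 7.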

How the data were processed

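RNA sequencing values were analysed for 12 libraries, 3 for each of 4 groups, grouped by the treatment in the labels. The deposited table gives FPKM, per the file headers. Tools named in the submitters' processing notes are STAR 2.5.2b, HISAT2 2.0.5, cutadapt and StringTie, without their roles, and the build is hg19. For the annotation and strand setting nothing is stated. In each row the highest group mean was at least 0.5001 FPKM, so lower genes were not analysed here, and 19 symbols stand in 2 rows. Depth is unknown, so no counting intervals are given.

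On the log2(FPKM + 1) scale used, fold changes of low genes are understated. Rows with FPKM of at least 1 in at least 3 libraries were kept, which removed 714. Group means of all 12 libraries were fitted together with limma 3.58.1 (R 4.3.3; statmod 1.5.0), using trended and robust variance moderation, two-sided, with Benjamini-Hochberg adjustment within a contrast at 0.05. The fit was tested on simulated data with known differences and, for each gene, the same noise in every library. That setting held no deviant library, so it tells nothing about calls that AGEs 1 or glucose 3 changed. The members, the 36 gene lists (891 entries, 166 not in the table) and the named genes were chosen with earlier results of these data known, so lists are given by counts and medians without a set test. Named were the 10 genes per direction with the smallest p, 2 to 4 members with the smallest p of each list described in full, the 3 per direction with the smallest interaction p, and AGER, MPO, TXNIP, ARRDC4 and the genes that earlier work called against BSA. Alternatives were a pseudocount of 0.1, other filters and scalings, other variance models, weighting of libraries, a block for replicate number, a minimum of 1.5-fold and leaving out each library. Chosen after seeing the data were the removal of GC and length trends (found for 96.8% of genes) and leaving out AGEs 1 and glucose 3 together.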

Additional observations from a re-analysis of the deposited data

Results flagged for a closer look

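TDG was singled out because the difference made by AGEs in high glucose differed from that without added glucose by a test of the difference itself, with an interaction of -1.0535 on the log2(FPKM + 1) scale (limma adjusted p = 0.0148). The libraries showed it in the low BSA values, at 6.86 to 8.66 FPKM against 15.3 to 18.2 FPKM in the 9 others. Only the arm without added glucose had BSA as its named comparator, so a changed response to AGEs cannot be told apart from the change of comparator.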

How the results depend on the processing

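With AGEs plus glucose against glucose, 3 genes were called. The count was 1 with an added minimum of 1.5-fold, 5 with only the groups compared, 27 with library weights (22 higher, 5 lower), 9 with GC and length trends removed and 10 with AGEs 1 and glucose 3 both left out; with 1 library left out it ran from 0 to 7. For the interaction, 1 gene was called, 3 with no filter, 2 with a mean FPKM of at least 5, 2 with median-of-ratios scaling, 14 with library weights, 3 with GC and length trends removed and 7 with AGEs 1 and glucose 3 both left out; with 1 library left out it ran from 0 to 4. The cause was not tested. With the replicate block the count was 0 in limma (554 genes at an unadjusted p under 0.05) and the interaction count 1. Same-numbered libraries of the 2 groups did not deviate together over all genes (correlations -0.04, 0.004 and -0.001). A factor shared by number that touches few genes or the other groups was not tested. NDRG1, at 0.01, turned to -0.00628 with library weights, to -0.0119 with AGEs 1 and glucose 3 both left out, and ran from -0.0119 (without glucose 3) to 0.0382 with 1 library left out; ATP2B4, at 0.06, ran from -0.0110 (without glucose 1) to 0.105. No other named gene changed sign over 1530 gene and setting pairs. Filters, the fit without trend and robust step, the replicate block and the fit of only the groups compared cannot change a gene's log2 difference. Nor can leaving out a BSA or AGEs library, so such pairs could not change sign. Of 825 list medians 54 moved by more than the spread between libraries. List medians were likewise fixed under those settings, except under the filter by mean FPKM. FPKM without counts limits what can be said of genes near 1 FPKM, such as AGER.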
